A study of Drosophila melanogaster with 16 samples.

Results

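Notch is a cell surface receptor through which neighbouring cells settle on different fates, and 10 genes of its core machinery were examined: the receptor *N*, the ligands *Dl* and *Ser*, the glycosyltransferases *rumi* and *fng*, the ligand-activating ubiquitin ligase *neur*, the regulators of asymmetric division *numb* and *spdo*, and the nuclear effectors *Su(H)* and *mam*. They were taken by gene symbol, and all 10 were present among the 9731 genes of the brain-ring gland complex (BRGC) table and among the 12509 genes of the rest-of-body table. The study sequenced poly(A) RNA of *Drosophila melanogaster* to ask which genes depend on translational readthrough of *dfr* (*vvl* in the tables), which encodes a POU-domain transcription factor. Wandering larvae of the third instar were dissected into the BRGC and the rest of the body, and 16 libraries fell into 4 groups of 4: control BRGC, *dfr14* BRGC, control body and *dfr14* body.

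Controls were *w[1118]* larvae carrying the normal *dfr* gene. The *dfr14* larvae were homozygous for a small CRISPR/Cas9 deletion next to the first stop codon of *dfr*. It removes the long readthrough form of the protein and keeps the short form. The study's immunoblots showed more of the short form, or possibly of a truncated long form, in these mutants. Loss of the long form and gain of the short form therefore cannot be told apart here. The labels name *w[1118]* as the background strain of every library and list no treatment. The allele was a single line that had been crossed to a balancer stock, and its repeated outcrossing to *w[1118]* came after these samples. The *dfr14* larvae developed more slowly by the study's account, so genotype, remaining differences in genetic background and developmental stage cannot be told apart. The body samples lacked the BRGC, the mouth hooks and the salivary glands, and came from other larvae than the BRGC samples. In GEO's labels the genotype field follows the tissue while the titles name the genotype, and the titles were followed. The sources used here do not say how many larvae went into each library, so p-values measure only the spread between these libraries.

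As background, Notch is folded and glycosylated in the secretory pathway, where Rumi adds O-glucose and Fringe extends O-fucose on the repeats of its extracellular domain. At the surface it is bound by Delta or Serrate on a neighbouring cell, and Neuralized drives the endocytosis of ligand that pulls the receptor open. Proteolysis then frees the intracellular domain, which joins Suppressor of Hairless and Mastermind on DNA and turns on genes such as those of the Enhancer of split complex. In dividing neural precursors, Numb is inherited by one daughter, where it holds Notch signalling back, and Sanpodo is the membrane protein that Numb acts on.

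The libraries held 17.1 to 30.1 M reads assigned to genes (median 22.2 M). Levels are given as CPM, the number of a gene's reads per M reads of its library, with the library sizes adjusted to each other by the authors' TMM scaling. The tissues had their normalization done in separate tables, so levels in the BRGC and the body are set side by side and not tested. Control body library 4 stood apart, with 1685 genes at 0 reads against 32 to 189 in the other body libraries. Testis and Y-linked markers (15 genes) summed to between 0.733 and 276 CPM in control bodies and between 27.4 and 169 CPM in *dfr14* bodies. Body libraries thus differed in transcripts of males, and the part of this in the other differences was not tested. Salivary glue genes summed to between 2.91 and 10135 CPM in control body libraries and to at most 0.339 CPM in *dfr14* body libraries, although salivary glands had been removed. Neuron markers (8 genes) summed to between 1398 and 2582 CPM in the BRGC libraries, and fat body markers (5 genes) to between 37494 and 117222 CPM in the body libraries. The transcript of *vvl* itself was higher in *dfr14* BRGCs, at 104 ± 11.2 against 64.9 ± 2.36 CPM (SD, n = 4), but the deletion takes out only a few bases of the gene, so the level of its transcript does not check the labels.

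In the BRGC, 3 of the 10 Notch genes were lower in *dfr14* and none was higher. *spdo* fell the most, followed by *rumi* and *fng*, while the receptor, both ligands, *numb*, *neur*, *Su(H)* and *mam* did not pass the test (limma on the deposited log2 values, two-sided, with Benjamini-Hochberg adjustment over all 9731 genes and a threshold of 0.05). Of all genes tested in the BRGC, 5.9% were lower and 10.1% higher. The members were chosen with earlier results of these data known. The study itself lists Notch signalling among the processes enriched in genes reduced in *dfr14* BRGCs. The count is therefore not a test of whether Notch genes fell more often than other genes. The median log2 fold change of the 10 members was −0.06, beside −0.02 over all genes, and 8 of the 10 had values below 0. In 4 members no *dfr14* library reached the level of any control library (*rumi*, *spdo*, *fng* and *Su(H)*), and 9.79% of all genes had controls separated on the higher side in this way. The opposite separation was found in none of the 10, beside 13% of all genes.

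**Figure D1:**
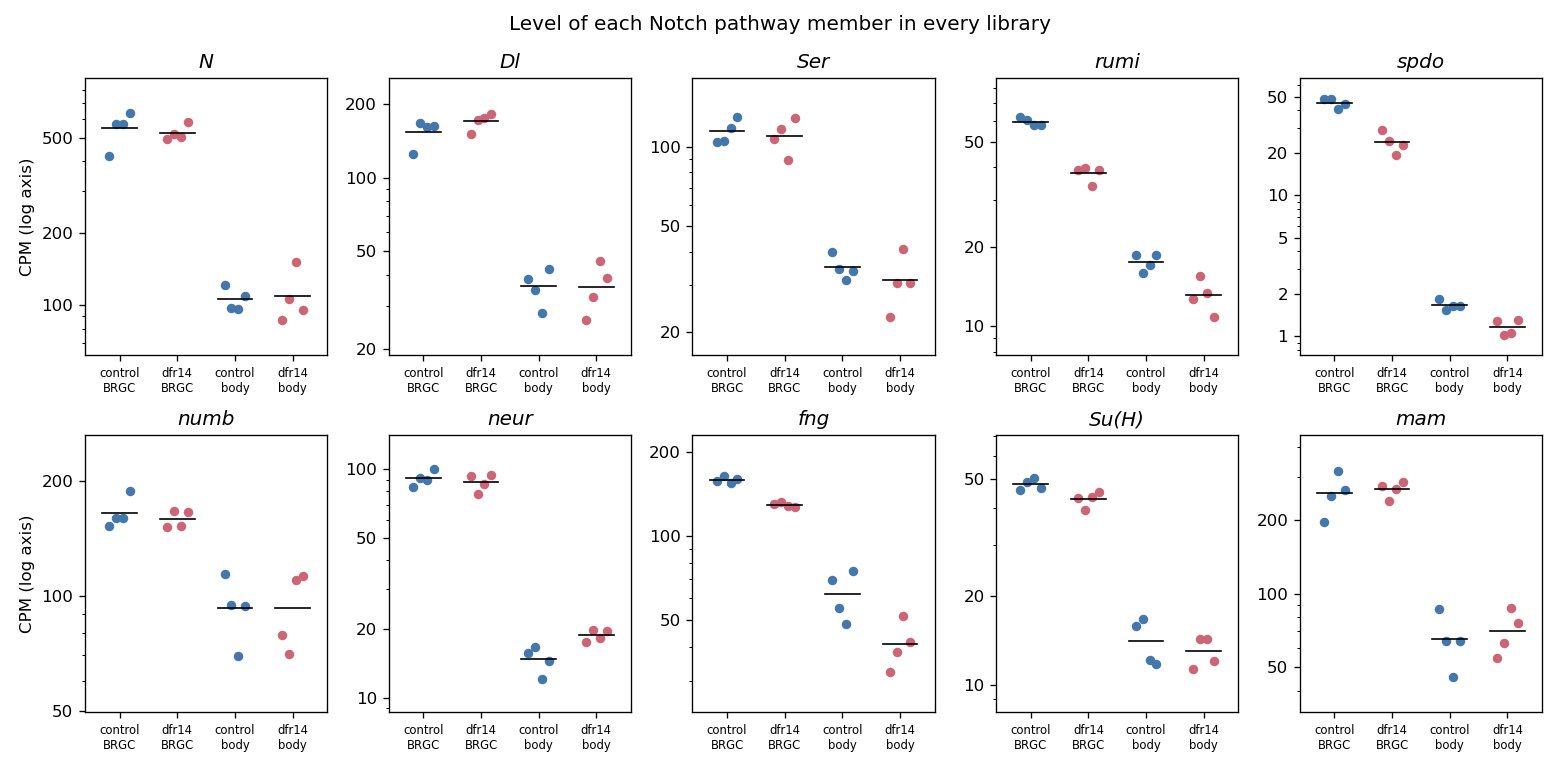
Each panel shows one gene, with a dot for the CPM of every library on a log axis, a black line at the mean of each group of 4, blue for control and red for dfr14. In the BRGC the red dots of rumi, spdo, fng and Su(H) all lie below the blue ones, while those of N, Dl, Ser, numb, neur and mam overlap.

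The receptor gene *N* (FBgn0004647, chromosome X 3134870 to 3172221, plus strand, BDGP6) measured 424, 572, 573 and 636 CPM in the 4 control BRGC libraries and 497, 520, 504 and 584 CPM in the 4 *dfr14* libraries. The *dfr14* values all lay inside the control range, whose width came from the low first library. The fold change was −0.05 on the log2 scale (SE 0.12, 95% interval −0.33 to 0.22, adjusted p = 0.798), and smaller changes of *N* in either direction were not detectable with this spread.

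Among the ligand genes, *Dl* measured 125, 167, 161 and 163 CPM in control BRGCs and 151, 172, 176 and 182 CPM in *dfr14* BRGCs. Here too the first library of each genotype was the lowest, and the groups overlapped. Its log2 fold change was 0.15 (SE 0.11, 95% interval −0.08 to 0.39, adjusted p = 0.351). *Ser*, the second ligand, ranged from 104 to 129 CPM in controls and from 89.1 to 128 CPM in *dfr14*, with a log2 fold change of −0.06 (95% interval −0.33 to 0.20, adjusted p = 0.759).

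*rumi* (FBgn0086253, 3R 22749014 to 22750597, minus strand) encodes the protein O-glucosyltransferase that modifies the Notch extracellular domain. It measured 61.9, 60.1, 57.8 and 57.8 CPM in control BRGCs and 39.1, 39.9, 33.8 and 39 CPM in *dfr14* BRGCs. The groups were far apart beside their spread, with means of 59.4 ± 1.99 and 38 ± 2.78 CPM, and the *dfr14* level was 0.639 of the control level. The log2 fold change was −0.65 (SE 0.08, 95% interval −0.82 to −0.48, adjusted p = 0.000493), and it passed the test under all 13 alternative settings, among them the removal of any single library. The annotation places 43 exonic bases of *CG31139* on the same strand within *rumi*, and that gene was not among those of the BRGC table.

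*fng* (FBgn0011591, 3L 20925891 to 20949512, minus strand) encodes the Fringe glycosyltransferase, which favours signalling by Delta over that by Serrate. Control BRGCs measured 158, 164, 154 and 159.7 CPM and *dfr14* BRGCs 130.4, 133, 128 and 127 CPM. The difference was small and the spread within each genotype smaller still, so the groups did not overlap. The *dfr14* level was 0.815 of the control level, with a log2 fold change of −0.29 (SE 0.06, 95% interval −0.42 to −0.17, adjusted p = 0.0079). Over the 13 alternatives the adjusted p ran from 0.00371 to 0.0349.

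*spdo* (FBgn0260440, 3R 30476684 to 30478849, plus strand) encodes Sanpodo, a transmembrane protein needed for Notch signalling in asymmetrically dividing cells. Control BRGCs measured 48, 47.7, 41 and 44.2 CPM and *dfr14* BRGCs 29.2, 24.1, 19.1 and 22.6 CPM. The highest *dfr14* library lay well under the lowest control library, and the *dfr14* level was 0.525 of the control level. The log2 fold change was −0.94 (SE 0.13, 95% interval −1.22 to −0.66, adjusted p = 0.00105), with values from −1.05 to −0.84 over the 13 alternatives, all of them past the test. Neuroblast markers moved with it: 5 of 8 were lower in *dfr14* BRGCs (*mira*, *dpn*, *wor*, *ase* and *insc*), none was higher, their median log2 fold change was −0.53, and the list summed to between 641 and 741 CPM in controls and between 557 and 642 CPM in *dfr14*, with no marker at 0. *grh* (0.10), *pnt* (0.12) and *klu* (−0.24) did not pass the test, and *grh* was the largest part of the sum, at 259 CPM in controls. The part of these markers in the *spdo* result was not tested. In these bulk libraries, fewer cells of a type and less RNA per cell cannot be told apart.

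*numb*, the inherited inhibitor of Notch, ranged from 152 to 188 CPM in control BRGCs and from 152 to 167 CPM in *dfr14* BRGCs, with a log2 fold change of −0.05 (SE 0.08, 95% interval −0.23 to 0.13, adjusted p = 0.709). *neur*, the ubiquitin ligase of the ligands, ranged from 83.7 to 100.3 CPM and from 78 to 94.3 CPM, with a log2 fold change of −0.06 (SE 0.09, 95% interval −0.25 to 0.14, adjusted p = 0.692). For both genes the genotypes overlapped.

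*Su(H)*, the DNA-binding effector, measured 46.1, 48.8, 50.3 and 46.9 CPM in control BRGCs and 43.1, 39.2, 43.5 and 45.4 CPM in *dfr14* BRGCs. The genotypes were separated by less than 1 CPM, and the *dfr14* level was 0.891 of the control level. The log2 fold change of −0.17 (SE 0.07) had an unadjusted p of 0.0463 and an adjusted p of 0.154, and it passed the test under 1 of 13 alternatives, scaling by library size alone (adjusted p = 0.0406). *mam*, the co-activator that binds with Su(H), had the largest SD relative to its mean among the 10 members in control BRGCs, from 197 to 318 CPM, against 240 to 287 CPM in *dfr14* (*mam* log2 fold change 0.07, 95% interval −0.23 to 0.37, adjusted p = 0.749).

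**Figure D2:**
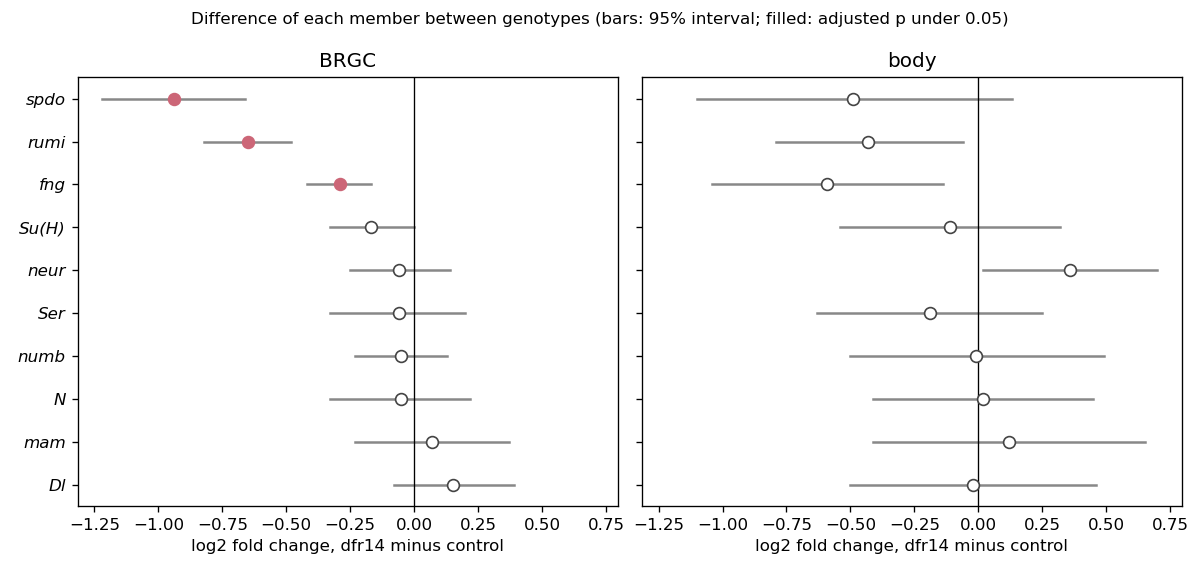
Points give the log2 fold change of each member, dfr14 minus control, in the BRGC (left) and the body (right), with 95% intervals from limma and filled points where the adjusted p was under 0.05. Filled points are spdo, rumi and fng in the BRGC, at −0.94, −0.65 and −0.29, and there is none in the body.

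Libraries of one group also differed in the members together. Control BRGC library 1 held the lowest control value of 7 of the 10 members (*N*, *Dl*, *Ser*, *numb*, *neur*, *Su(H)* and *mam*) and the highest value of *rumi* and *spdo*. Over all genes, 26.1% had their lowest and 29.6% their highest control BRGC value in that library. Without this library the log2 fold change was −0.18 for *N* and −0.05 for *mam*, and the same 3 members were called.

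To compare members with each other, levels were divided by the length of their exons. In control BRGCs *fng* stood highest at 81.1 ± 2.04 CPM per kb and *N* followed at 54.3 ± 8.88 CPM per kb, both separate from their neighbours in every library. The next ranks overlapped from one to the next, from *rumi* at 38.7 CPM per kb through *numb* (33.6), *Dl* (29.1), *mam* (29.1), *spdo* (21.7) and *neur* (21.2) to *Ser* (19.6). *Su(H)* was lowest at 16.3 ± 0.638 CPM per kb and did not overlap with *Ser*. In *dfr14* BRGCs *fng* (66.1 CPM per kb) and *N* (51.8) kept the first ranks, *rumi* went from rank 3 to rank 6 at 24.8 CPM per kb, and *spdo* from rank 7 to rank 10 at 11.4 CPM per kb. The 10 members together summed to 345 ± 20.5 CPM per kb in controls and 303 ± 11.7 CPM per kb in *dfr14*, and the lowest control sum (315) lay under the highest *dfr14* sum (319).

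**Figure D3:**
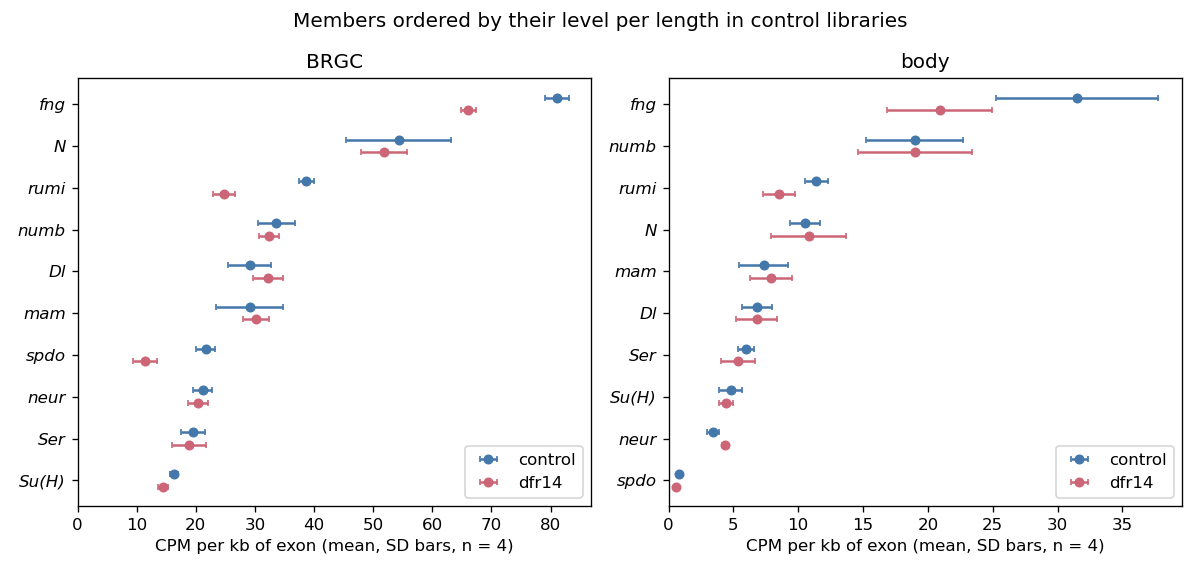
Members are ordered from top to bottom by their mean level in control libraries, in CPM per kb of exon, with SD bars over 4 libraries, for the BRGC (left) and the body (right). In the BRGC the red points of rumi (24.8) and spdo (11.4) lie to the left of their blue points (38.7 and 21.7) in the same row.

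Ratios between members within a library do not depend on how libraries were scaled, and no test was run on them. The share of all gene pairs whose ratios separate the genotypes was not computed. For single genes in the BRGC that share was 9.79% with controls higher and 13% with *dfr14* higher. For single genes in the body it was 2.53% with controls higher and 6.61% with *dfr14* higher. The ratio of *N* to *rumi*, both in CPM per kb, was 1.03 to 1.66 in control BRGCs and 1.92 to 2.26 in *dfr14* BRGCs, so the genotypes did not overlap. *N* to *spdo* was 1.81 to 2.96 in controls and 3.51 to 5.42 in *dfr14*, again without overlap, and *numb* to *spdo* was 1.35 to 1.8 in controls and 2.21 to 3.38 in *dfr14*. *N* to *fng* overlapped, at 0.518 to 0.768 in controls and 0.736 to 0.884 in *dfr14*. *N* to *Dl* was 1.77 to 2.03 in controls and 1.49 to 1.71 in *dfr14*, a separation that the level of neither gene showed on its own. *Dl* to *Ser* overlapped (1.32 to 1.75 and 1.56 to 2.18), as did *N* to *Su(H)* (2.67 to 3.94 and 3.35 to 3.86) and *mam* to *Su(H)* (1.42 to 2.1 and 2.04 to 2.14). In the body, *N* to *rumi* was 0.859 to 0.993 in controls and 1.03 to 1.72 in *dfr14*, and *N* to *fng* was 0.283 to 0.388 and 0.444 to 0.57, both without overlap. *N* to *spdo* also separated there, at 12.2 to 13.6 and 13.8 to 29.6, on few *spdo* reads. The other body ratios computed overlapped.

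**Figure D4:**
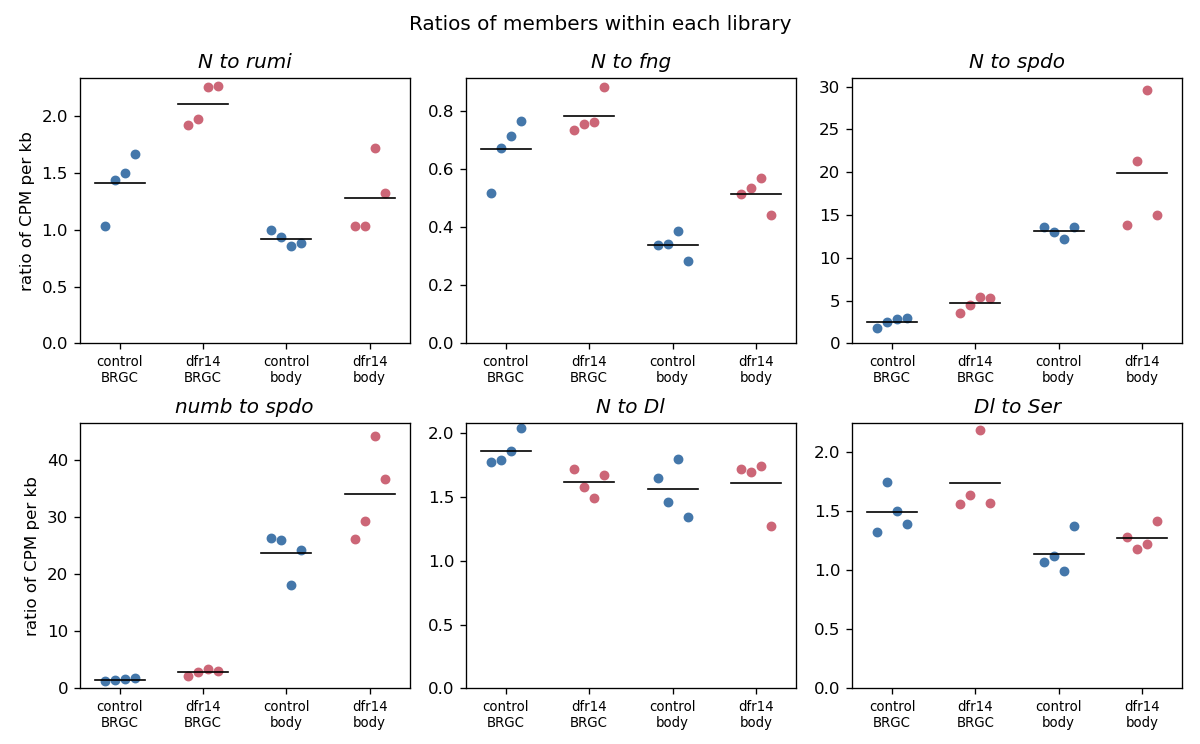
Each dot is the ratio of the levels of a pair of members (CPM per kb) within one library, in the 4 groups, with a black line at the group mean. In the BRGC the ratio of N to rumi is 1.03 to 1.66 in controls and 1.92 to 2.26 in dfr14, and in the body 0.859 to 0.993 and 1.03 to 1.72.

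In the body, none of the 10 members passed the test, where 0.328% of all genes were lower and 1.09% higher. At an unadjusted p under 0.05 there were 3 of 10 members (*rumi*, *neur* and *fng*), beside 13.5% of all body genes, and no member was called with voom weights, with the level of Y-linked genes as a covariate, or under any other of the 14 alternatives. Over all body genes the median log2 fold change was 0.12 with TMM scaling, −0.12 with library size alone and 0.02 with RLE factors, so body values are also given relative to it. *fng* (−0.71), *spdo* (−0.61) and *rumi* (−0.55) lay below that median, and *neur* lay above it (0.24). These were within 0.02 of the same values under each of the 3 scalings. A change of scaling moves all genes nearly alike, so this closeness follows from the subtraction and is no check of the values. Without the subtraction, library size alone gave −0.66 for *rumi* (−0.43 with TMM) and 0.12 for *neur* (0.36 with TMM).

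*rumi* measured 18.6, 15.9, 17 and 18.6 CPM in control bodies and 12.7, 15.5, 13.4 and 10.9 CPM in *dfr14* bodies. The groups did not overlap, and the *dfr14* level was 0.748 of the control level (log2 fold change −0.43, SE 0.16, 95% interval −0.79 to −0.06, adjusted p = 0.296). *spdo* was near the lower end of what these libraries measured, with 36 to 40 reads per control body library and 19 to 29 reads per *dfr14* body library. That was 1.67 ± 0.129 and 1.17 ± 0.15 CPM without overlap (log2 fold change −0.49, 95% interval −1.10 to 0.13, adjusted p = 0.509). These were the 2 members with controls separated on the higher side, beside 2.53% of all body genes.

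*fng* measured 69.2, 55.2, 48.1 and 74.5 CPM in control bodies and 32.5, 38.2, 51.4 and 41.4 CPM in *dfr14* bodies, where the third *dfr14* library reached into the control range. Its log2 fold change was −0.59 (SE 0.19, 95% interval −1.04 to −0.14, adjusted p = 0.239). *neur* (FBgn0002932, 3R 9020348 to 9039471, minus strand) measured 15.7, 16.6, 12.1 and 14.5 CPM in control bodies and 17.6, 19.8, 18.2 and 19.6 CPM in *dfr14* bodies. It was the 1 member with *dfr14* separated on the higher side, beside 6.61% of all body genes (log2 fold change 0.36, SE 0.15, 95% interval 0.02 to 0.70, adjusted p = 0.351). An antisense transcript, *asRNA:CR31429*, shares 1673 exonic bases with *neur* and averaged 4.42 CPM in the body. *CG10589*, on the opposite strand, shares 22 exonic bases with *fng* and averaged 33.2 CPM in the body. *CG31139*, which shares 43 exonic bases with *rumi* on the same strand, averaged 6.4 CPM there. Neither the strand setting of the read counting nor its handling of shared bases is given in the sources used here. How reads from these bases were counted is therefore not known. Without control body library 4, which stood apart, the log2 fold changes were −0.40 for *rumi*, −0.49 for *spdo*, −0.49 for *fng* and 0.35 for *neur*, and none passed the test.

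The other 6 members overlapped between genotypes in the body. *N* was at 106 ± 11.8 CPM in controls and 110 ± 29.1 CPM in *dfr14*, *Dl* at 36 ± 6.05 and 35.9 ± 8.27 CPM, and *Ser* at 35 ± 3.66 and 31.2 ± 7.53 CPM. *numb* was at 93.3 ± 18.4 and 93.3 ± 21.5 CPM, *Su(H)* at 14.1 ± 2.53 and 13 ± 1.57 CPM, and *mam* at 65 ± 16.8 and 70 ± 14.3 CPM. The intervals of their log2 fold changes all included 0 and reached down to between −0.63 and −0.41, so a fall as large as that of *fng* in the BRGC (−0.29) lay inside each of these 6 intervals. Control body library 3 held the lowest control value of 7 members (*N*, *Dl*, *Ser*, *numb*, *neur*, *fng* and *mam*), beside 16.6% of all genes, and *dfr14* body library 1 the lowest *dfr14* value of 7 (*N*, *Dl*, *Ser*, *neur*, *fng*, *Su(H)* and *mam*), beside 17.4%. *dfr14* body library 3 held the highest *dfr14* value of 5 members (*N*, *Dl*, *Ser*, *fng* and *mam*), beside 19.8% of all genes.

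The order per length was different in the body. *fng* was again highest (31.5 CPM per kb in controls, 20.9 in *dfr14*), but *numb* was next (19 CPM per kb in both genotypes) and *N* was at 10.5 and 10.8 CPM per kb, while *spdo* was last at 0.799 and 0.56 CPM per kb, separate from *neur* above it in both genotypes. Among *dfr14* bodies every other neighbouring pair overlapped.

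Whether the effect of genotype differed between the tissues was tested as the body difference minus the BRGC difference over the 9256 genes in both tables. None of the 10 members passed, where 1.29% of all genes did, and 1 of 10 had an unadjusted p under 0.05, beside 14.1% of all genes, so the members did not stand out here. *neur* was that 1 member, with a difference between the tissues of 0.41 on the log2 scale (SE 0.15, 95% interval 0.09 to 0.74, adjusted p = 0.222). For *spdo* it was 0.46 (SE 0.22, 95% interval −0.00 to 0.92), for *rumi* 0.22 (−0.11 to 0.55) and for *fng* −0.30 (−0.72 to 0.12). The calls of *rumi*, *spdo* and *fng* in the BRGC alone are therefore not shown to be specific to that tissue.

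The other genes of the pathway were grouped by step. The counts in these short lists are to be read beside the 10.1% of all BRGC genes that were higher and the 5.9% that were lower. These lists too were chosen with earlier results of these data known, so their counts are a description only. Of 9 genes of receptor cleavage measured in the BRGC, 1 was higher and 1 lower, and both encode subunits of the γ-secretase that cuts Notch within the membrane. *pen-2* rose from 22.2 ± 1.63 to 35.4 ± 4.64 CPM (log2 fold change 0.66, adjusted p = 0.00337), and *Psn*, the catalytic subunit, fell from 136 ± 3.93 to 112 ± 10.4 CPM (log2 fold change −0.28, adjusted p = 0.0394). The median of this list was 0.10. Of 5 further genes of glycosylation, 1 was higher, *Efr*, which encodes a GDP-fucose transporter of the endoplasmic reticulum (21 ± 2.75 to 33.4 ± 3.44 CPM, log2 fold change 0.67, adjusted p = 0.00471).

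None of 8 genes of ligand ubiquitylation and endocytosis and none of 21 genes of receptor trafficking passed the test in the BRGC, with medians of 0.01 and 0.04. Of 7 Bearded family genes, whose products inhibit Neuralized, 1 was lower, *Ocho* (26.3 ± 1.87 to 20.6 ± 1.27 CPM, log2 fold change −0.35, adjusted p = 0.0259), and the list's median was −0.10. Of 14 partners of Numb in asymmetric division, 3 were lower and none higher, with a median of −0.09. These were *mira*, an adaptor that carries fate determinants to one daughter of a neuroblast (log2 fold change −0.98, adjusted p = 0.00145), *insc*, which links cell polarity to the spindle (−0.51, adjusted p = 0.0429), and *aPKC*, the kinase of the Par complex (−0.40, adjusted p = 0.045). *mira* and *insc* also stand among the neuroblast markers above.

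Of 17 nuclear activators and repressors, 3 were lower in *dfr14* BRGCs and none higher, with a median of −0.03. They were *insv*, a co-repressor that acts with Su(H) (27.1 ± 2.94 to 17.6 ± 3.59 CPM, log2 fold change −0.64, adjusted p = 0.022), *Bre1*, a histone H2B ubiquitin ligase (−0.26, adjusted p = 0.0326), and *ebi*, a co-repressor (−0.22, adjusted p = 0.0352). Of 14 target genes, 3 were lower and none higher, and 12 had values below 0, with a median of −0.25. The list held 10 genes of the Enhancer of split and Hes-related families, of which 3 were lower and 8 had values below 0 (median −0.25), and 4 other targets (*ct*, *wg*, *vg* and *klu*), of which none passed the test and all 4 had values below 0 (median −0.25). *Hey* went from 10.4 ± 2.59 to 5.07 ± 1.27 CPM (log2 fold change −1.02, adjusted p = 0.016), *E(spl)m5-HLH* was at −0.80 (adjusted p = 0.0104) and *dpn*, also a neuroblast marker, at −0.59 (adjusted p = 0.0109). In the body none of these 8 lists held a gene past the test, and their medians ran from −0.39 for the Bearded family to 0.28 for ligand endocytosis. *Hey* and *E(spl)m5-HLH* were not among the 12 target genes measured in the body, so they were not tested there.

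**Figure D5:**
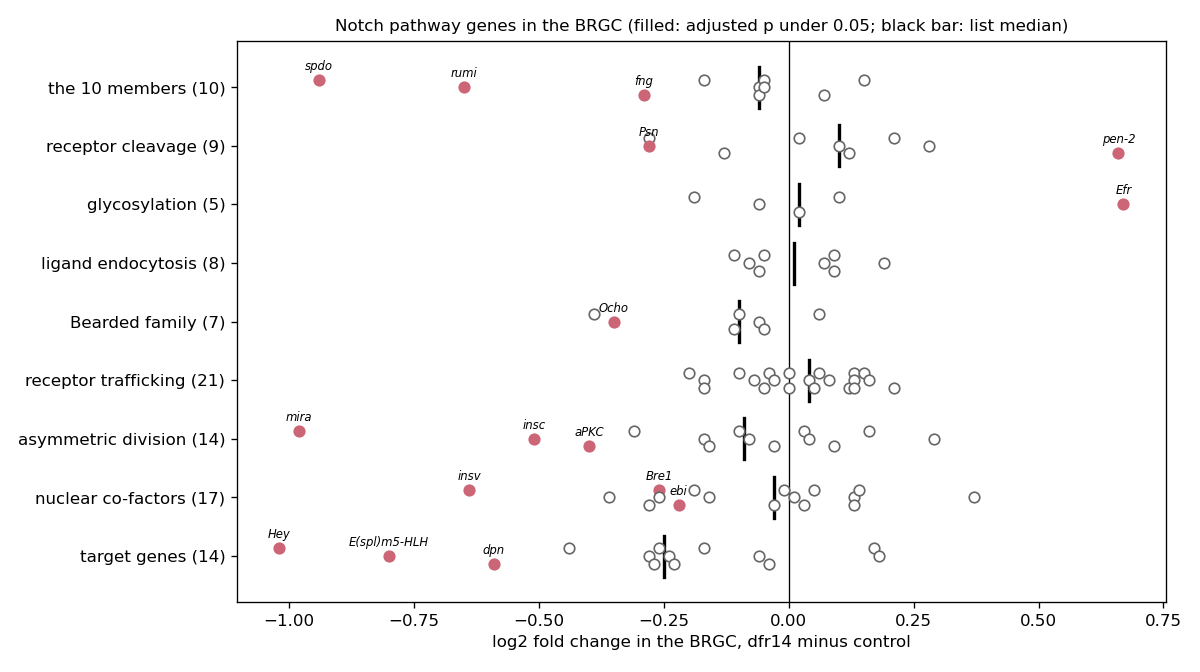
Each circle is the log2 fold change of one gene in the BRGC, dfr14 minus control, for the 10 members and 8 lists of other Notch pathway genes (number measured in parentheses), filled and named where the adjusted p was under 0.05, with a black bar at each list's median. The named genes of the asymmetric division, nuclear and target lists all lie below 0, while pen-2 (0.66) and Efr (0.67) lie above.

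Other cell type markers were read beside the members in the BRGC. None of 8 neuron markers passed the test (7 above 0, summed level 1556 to 2268 CPM in controls and 1398 to 2582 CPM in *dfr14*). Of 5 markers of ganglion mother cells and intermediate progenitors 2 were lower (*erm* at −0.97 and *tll* at −0.95 on the log2 scale). All 5 had values below 0, with a sum of 1088 to 1865 CPM in controls and 994 to 1404 CPM in *dfr14*. Most of that sum was *pros* (−0.08, not called), with means of 1053 and 970 CPM. Of 5 optic lobe markers 2 were lower (*Vsx1* at −0.90 and *slp1* at −0.45), while *l(1)sc* (−0.66), *Optix* (−0.40) and *hth* (0.31) did not pass the test. Their sum was 459 to 637 CPM in controls and 611 to 719 CPM in *dfr14*. Most of that sum was *hth* alone, with means of 503 and 616 CPM. Of 8 glia markers 1 was lower (*gcm* at −0.70), 5 had values below 0 and 3 above. Their sum was 668 to 943 CPM in controls and 646 to 949 CPM in *dfr14*. Of 8 eye disc markers 2 were lower (*ato* at −0.69 and *ey* at −0.30), 6 had values below 0 and 2 above (*chp* at 0.47 and *gl* at 0.21, not called). Their sum was 351 to 403 CPM in controls and 356 to 431 CPM in *dfr14*. Of 10 imaginal disc markers 1 was lower, with a sum of 414 to 484 CPM in controls and 351 to 454 CPM in *dfr14*. Of 6 sensory organ precursor markers, which include *neur*, 1 was lower (*phyl*), with a sum of 184 to 206 CPM in controls and 176 to 189 CPM in *dfr14*. Of 7 ring gland markers 4 were lower (*dib*, *sad*, *nvd* and *spok*), with a sum of 572 to 709 CPM in controls and 437 to 542 CPM in *dfr14*. These 4 are ecdysone synthesis genes whose normal level, the study proposes, requires readthrough of *dfr*. The list therefore cannot serve as a measure of ring gland content. Its remaining markers, *phm* (−0.48), *mgl* (0.03) and *Akh* (0.49), did not pass the test. Of 5 hemocyte markers 2 were higher (*NimC1* at 2.04 and *He* at 0.96), with a sum of 289 to 770 CPM in controls and 525 to 695 CPM in *dfr14*. *eater* (0.74), *Hml* (−0.06) and *Pxn* (−0.31) did not pass the test. Of 6 muscle markers 1 was higher (*sls* at 0.62). None of 5 fat body markers passed the test, but their sum ran from 43.2 to 4028 CPM in control BRGCs and from 68.1 to 318 CPM in *dfr14* BRGCs. The part of these differences in the levels of *rumi*, *fng* and *spdo* was not tested.

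Genes whose pattern over the 8 BRGC libraries was most like that of a member were found by the root mean square difference of log2 values, each gene centred on its own mean, among 7377 genes with a mean of at least 10 CPM. For *N* they were *crb* (0.062), *scrib* (0.076) and *shg* (0.077), which encode proteins of epithelial polarity and adhesion, and the log2 fold changes of these 3 genes ran from −0.12 to −0.02. For *rumi* they were *trn* (0.047), *mRNA-cap* (0.052) and *CG1463* (0.075), with log2 fold changes of −0.65, −0.62 and −0.54. For *spdo* they were *D* (0.087), *CG8891* (0.109) and *sna* (0.115), with log2 fold changes of −0.94, −0.86 and −0.97. *D* encodes a Sox-domain and *sna* a zinc finger transcription factor. These genes were chosen for their likeness, so their fold changes are a description only.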

How the data were processed

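Per the labels and the methods, stranded libraries of poly(A) RNA went through Trim Galore, STAR (genome build BDGP6) and featureCounts (versions and annotation release not given in the sources used here), and the authors deposited log2 CPM values, made in edgeR with TMM scaling and a prior count of 2, in a table per tissue. The deposited columns were tied to genotypes through the tables' own group means, and libraries are numbered by column place within a group, since no replicate number is given there. Left out were 16 further columns that hold the same values with the floor subtracted, and the columns of the authors' own fold changes and p-values. Undoing the log and the prior count gave whole reads for 100% of values (within 0.001 of a read), from which CPM values were computed. Exon lengths came from the Ensembl annotation of BDGP6.

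Differences in log2 values were tested by limma's moderated test with a trend on mean level (limma 3.58.1 in R 4.3.3). This was done per tissue and for the difference between tissues, with p-values adjusted over all genes. The fit per tissue was also run on simulated data with 200 changed genes, and the outcome is not given here. The members and lists were chosen with earlier results of these data known. Named were all 10 members, *vvl*, in each Notch list up to 4 genes past the test, and the 3 genes nearest in pattern to *N*, *rumi* and *spdo*. Cell type markers, the other targets and genes overlapping a member are named beyond this rule, chosen after their values were seen. Alternatives were library size alone, RLE factors, a filter on low reads, a prior count of 0.5, voom weights, a Y-linked covariate in the body, and each library left out. Depth was 17.1 to 30.1 M reads per library.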

Additional observations from a re-analysis of the deposited data

Results flagged for a closer look

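Among 44 groups of 4 libraries (10 members and *vvl* in 4 groups), 2 held a library far from the others relative to the group's range (Dixon's ratio), and chance alone marks about 1 in 20 such groups. *Dl* was at 125 CPM in control BRGC library 1, while the other 3 control libraries lay between 161 and 167 CPM. *rumi* was at 33.8 CPM in *dfr14* BRGC library 3, while the other 3 *dfr14* libraries lay between 39 and 39.9 CPM. No member passed the test of a difference in effect between the tissues.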

How the results depend on the processing

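The calls of *rumi*, *spdo* and *fng* in the BRGC held under all 13 alternatives, *Su(H)* joined them under 1, and no member was called in the body (14 alternatives) or for the difference between tissues (21 alternatives). *vvl* passed in the body under 1 of 14 (adjusted p from 0.037 to 0.46). With library size alone the log2 fold change changed sign for *mam* in the BRGC (−0.01), for *N* (−0.22) and *mam* (−0.12) in the body, and for the tissue difference of *N* (−0.08), *numb* (−0.11), *Su(H)* (−0.10) and *mam* (−0.11). With RLE factors it did so for *N* in the body (−0.08) and for the tissue difference of *N* (−0.02), *numb* (−0.05), *Su(H)* (−0.03) and *mam* (−0.04). None of these values had passed the test. With 1 library left out the sign also moved in the BRGC for *N* (−0.18 to 0.02), *Ser* (−0.14 to 0.04), *numb* (−0.09 to 0.01) and *mam* (−0.05 to 0.18), in the body for *N* (−0.15 to 0.12), *Dl* (−0.14 to 0.12), *numb* (−0.14 to 0.12) and *mam* (−0.04 to 0.27), and in the tissue difference for *N* (−0.09 to 0.19), *Ser* (−0.27 to 0.01), *numb* (−0.09 to 0.17), *Su(H)* (−0.02 to 0.15) and *mam* (−0.11 to 0.20). Over all genes, the BRGC count of 1554 calls (980 higher, 574 lower) became 782 higher and 988 lower with library size alone and 901 to 1613 in all with 1 library left out (914 without control library 4, 901 without *dfr14* library 4). The body count of 177 (136 higher, 41 lower) became 113 higher and 81 lower with library size alone, 62 in all with voom weights, 736 (398 higher, 338 lower) with the Y-linked covariate and 72 to 245 with 1 library left out. The tissue difference count of 119 (60 above 0, 59 below) became 25 above and 87 below with library size alone, 41 and 78 with RLE factors, 58 in all with voom weights and 55 to 206 with 1 library left out. The causes of these shifts were not tested. No paired analysis was possible because the deposited columns carry no replicate numbers. In the body, *spdo* rested on 19 to 40 reads per library, which limits its precision.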
